A study of Mus musculus with 6 samples.

Results

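The genes described here carry the signal of leukemia inhibitory factor (LIF) and its receptor: Lif, Lifr, Il6st, Osmr, Jak1, Jak2, Stat3 and Socs3. They were selected by name as the core of the pathway, with the count differences between the 2 cell lines of this series already known. Of the 8 genes, 7 are among the 14774 genes of the count table. Osmr, the receptor for oncostatin M, has no row and is not analysed here. Because the same counts were in view when the set was chosen, the differences of these 7 genes between the lines are given as a description with no p of their own.

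RNA was sequenced from 3 libraries of MA-10, a mouse tumor Leydig cell line of wild type genotype, and 3 libraries of STARKO1, a line made from MA-10 by cutting exon 2 of Star with CRISPR/Cas9. Star encodes the protein that delivers cholesterol to mitochondria for steroid synthesis. Both lines were left untreated and grown in normal conditions, and total RNA was used for all 6 libraries. STARKO1 is 1 clone grown from a single sorted cell, so the loss of Star and the properties of that clone cannot be told apart. The methods speak in general of independent experiments but not of these libraries, so whether the libraries of a line came from separate cultures is not given, and p-values then measure only the spread between these libraries, which may be technical.

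Total counts ran from 14114349 to 19530054 per library. Levels are given as CPM, the count of a gene as a share of the scaled total of its library. Star, the edited gene, had 60.9, 109 and 61.4 CPM in MA-10 and 2.06, 2.71 and 2.02 CPM in STARKO1. All 9 Leydig cell markers were in the table, with summed levels of 2042 to 2715 CPM in MA-10 and 1626 to 1704 CPM in STARKO1. The sum hides genes that went different ways, 6 lower and 3 higher in STARKO1 by their fitted change. Mean CPM in MA-10 and STARKO1 was 835 and 439 for Cyp11a1, 573 and 302 for Hsd3b6, and 29.8 and 5.19 for Hsd3b1. It was 472 and 633 for Nr5a1, and 3.58 and 8.57 for Cyp17a1. Of 7 macrophage markers 3 were in the table, at a summed 5.38 to 10.1 CPM in MA-10 and 6.66 to 8.69 CPM in STARKO1, and Adgre1 and Itgam had no row. Of 6 endothelial markers 2 were in the table (Pecam1 and Cdh5), while Kdr, Tek and Vwf had no row. The sum of the 2 was higher in STARKO1, at 118 to 124 CPM against 26.4 to 41.5 CPM in MA-10. It was almost all Cdh5, with means of 33.8 CPM in MA-10 and 121 CPM in STARKO1. Pecam1 had means of 0.423 and 0.729 CPM, and its libraries overlapped between the lines. Of 7 Sertoli cell markers Dhh and Rhox5 were in the table, with sums of 333 to 524 CPM in MA-10 and 565 to 589 CPM in STARKO1, and Amh, Sox9 and Fshr had no row. Of 6 peritubular myoid markers Myh11 and Des were in the table, with sums of 13.0 to 20.5 and 1.72 to 2.59 CPM, and of 6 germ cell markers Ddx4 alone, at 2.20 to 3.55 and 1.91 to 2.83 CPM. The macrophage, Sertoli and myoid sums were each mostly 1 gene. Mean CPM in MA-10 and STARKO1 was 6.75 and 7.61 for Csf1r, 390 and 559 for Rhox5, and 15.3 and 1.93 for Des. Myh11 had means of 0.591 and 0.335 CPM, and its libraries overlapped between the lines. The part of other cells in the results was not tested.

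MA-10 replicate 1 stood apart from its group. Over 8538 genes its log2 CPM correlated with the other 2 MA-10 libraries at r = 0.802 and 0.874, and with the 3 STARKO1 libraries at r = 0.949 to 0.955. MA-10 replicates 2 and 3 correlated with each other at r = 0.974, and the STARKO1 libraries among themselves at r = 0.995 to 0.996. The factor that scaled the total of a library was 1.16 for MA-10 replicate 1 and 1.17 to 1.19 for STARKO1. For MA-10 replicates 2 and 3 it was 0.654 and 0.805. Which MA-10 libraries are typical of the line was not tested. The differences of the 7 genes, and calls that turned, are therefore also given without replicate 1.

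LIF is a secreted cytokine of the interleukin 6 family. It binds LIFR, which pairs with gp130, the signal-transducing subunit encoded by Il6st and shared by the whole family. Kinases of the JAK family sit on the inner tails of both chains and phosphorylate them and the transcription factor STAT3, which then enters the nucleus. Among the genes STAT3 switches on is Socs3, whose protein binds gp130 and the JAKs and shuts the signal off. In the testis, LIF is known as a product of peritubular cells and as a factor acting on germ, Sertoli and Leydig cells.

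The promoters of Lifr and Socs3 are printed because Lifr had the widest gap between the lines of the 7 genes and Socs3 is the textbook STAT3 target of the set. All sequences come from the RefSeq annotation of the mouse build GRCm38.p6, which gave a window of 250 bases before to 50 after the annotated start for 8 of 8 genes, in 9 windows. The parts of the windows before the annotated exon are shown, on the strand of the gene. Where annotated exon reaches past the start that sets a window, the printed part stops short of that start. Capitals mark TTCNNNGAA, the letters that STAT dimers are known to favour, searched on both strands, on which it reads alike.
Lifr promoter 1, chr15:7129322-7129558, plus strand: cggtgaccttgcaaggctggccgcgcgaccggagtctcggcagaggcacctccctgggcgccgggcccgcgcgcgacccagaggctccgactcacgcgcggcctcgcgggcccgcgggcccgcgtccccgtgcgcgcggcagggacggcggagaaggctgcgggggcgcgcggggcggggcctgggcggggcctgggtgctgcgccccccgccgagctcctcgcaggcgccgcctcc
Lifr promoter 2, chr15:7140292-7140541, plus strand: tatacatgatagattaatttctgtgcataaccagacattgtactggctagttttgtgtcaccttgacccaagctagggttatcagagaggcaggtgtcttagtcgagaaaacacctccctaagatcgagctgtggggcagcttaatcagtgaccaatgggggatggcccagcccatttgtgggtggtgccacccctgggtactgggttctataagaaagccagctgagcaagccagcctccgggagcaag
Socs3 promoter, chr11:117969452-117969616, minus strand: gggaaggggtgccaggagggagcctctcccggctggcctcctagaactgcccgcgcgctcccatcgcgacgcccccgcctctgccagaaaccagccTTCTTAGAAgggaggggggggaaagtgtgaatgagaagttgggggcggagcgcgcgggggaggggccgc

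RefSeq places these starts inside the genes as the count table bounds them, 39.0 and 49.9 kb into Lifr and 0.681 kb into Socs3. The first Lifr window had a GC content of 81.3% and 53 CpG dinucleotides, and the second, further into the gene, 53.3% and 4, beside medians of 52.7% and 7 over 32851 promoter windows. The motif was found in 1 of the 9 windows, that of Socs3, as TTCTTAGAA 154 bases before the start that sets the window. The printed part of that window, 165 bases, stops short of that start, so the 154 bases are not counted from its end. It was present in 8.30% of all windows. The Jak2 window was also rich in GC, at 81.0% with 44 CpG dinucleotides, and the Il6st window had 68.3% and 33. The match is a description of the letters and says nothing of binding, and the windows without it say only that these letters are not there.

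Of the 7 genes, 1 was higher and 1 lower in STARKO1 at an adjusted p under 0.05 in edgeR's quasi-likelihood test, Lifr and Jak2. Across all genes 9.04% of 11939 tested passed, 4.3% as higher and 4.74% as lower. These 2 genes were also the only ones of the 7 whose libraries did not overlap between the lines, which was so for 42.5% of all genes tested. Without MA-10 replicate 1, 4 of the 7 passed, and 65.7% of all genes did. The members were chosen on this contrast, so nothing is read from these counts. The median log2 fold change over all genes tested, STARKO1 against MA-10, was -0.05. With library size as the only scaling it was 0.38, a shift of 0.43, and the fold changes below are to be read relative to it.

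**Figure D1:**
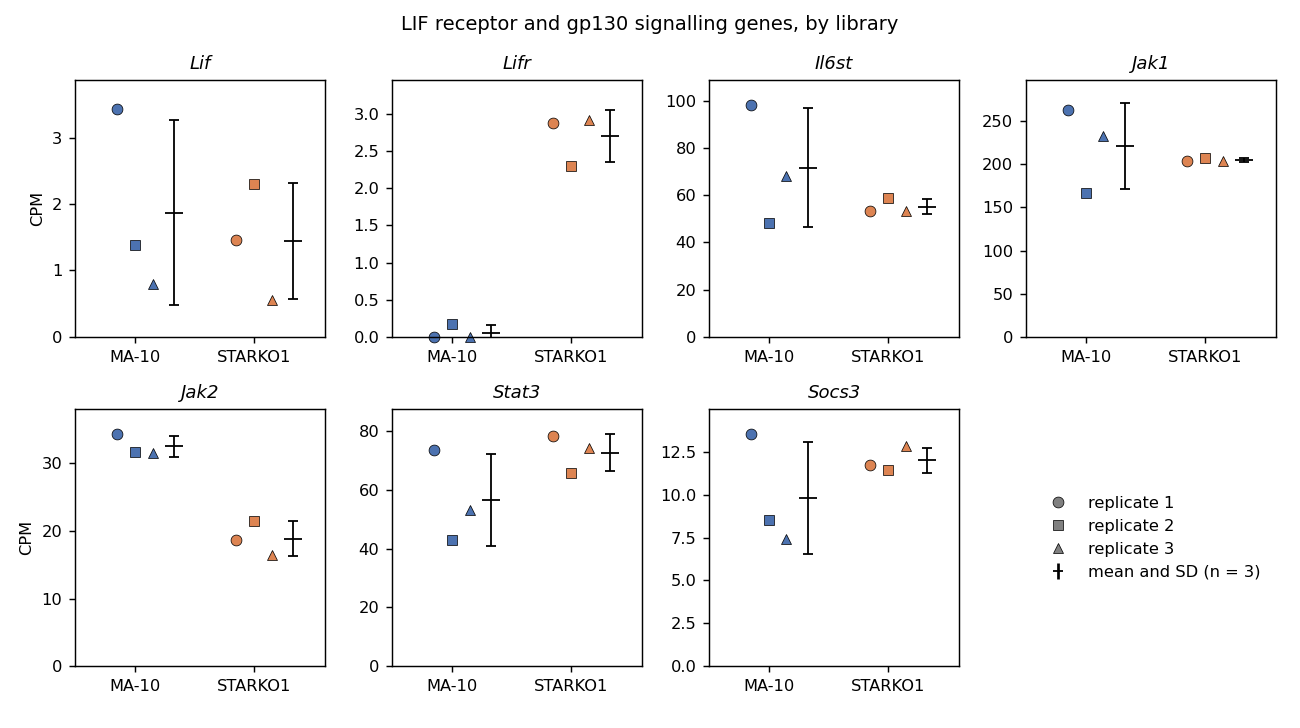
CPM (y axis, each panel from its own scale) of the 7 genes in the 3 MA-10 and 3 STARKO1 libraries. Symbols mark replicates 1, 2 and 3 and bars the mean with its SD (n = 3). Lifr is at or near 0 in MA-10 and between 2.30 and 2.92 CPM in STARKO1, Jak2 is lower in every STARKO1 library, and the other 5 overlap.

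The ligand was scarce in both lines. Lif (chr11:4257557-4272514, plus strand) had 60, 16 and 9 counts in MA-10 and 34, 39 and 10 in STARKO1, or 3.44, 1.39 and 0.793 CPM against 1.46, 2.30 and 0.562 CPM. The groups overlapped, and the highest library was MA-10 replicate 1. The means were 1.87 ± 1.39 CPM (SD, n = 3) and 1.44 ± 0.869 CPM (SD, n = 3), and the fitted log2 difference was -0.42 with a standard error of 0.661. Without MA-10 replicate 1 its sign turned, to 0.48. In bulk RNA, fewer cells making a transcript and less of it per cell cannot be told apart, here or for any gene below.

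The chain that binds LIF, which also serves other ligands of the family, had the widest gap of the 7 genes. Lifr (chr15:7090614-7197489, plus strand) had 0, 2 and 0 counts in MA-10 and 67, 39 and 52 counts in STARKO1. As CPM this was 0, 0.173 and 0 against 2.88, 2.30 and 2.92, with means of 0.0578 ± 0.10 (SD, n = 3) and 2.70 ± 0.349 (SD, n = 3). Every STARKO1 library was above every MA-10 library, and replicate 1 of MA-10, whose profile correlated more closely with STARKO1, had no Lifr count. Pooled over libraries, the 2 counts of MA-10 and the 158 of STARKO1 gave a ratio of 54.9, with a 95% exact interval of 15 to 458 that covers counting error only. A count of 0 in an MA-10 library allows up to 3 counts, at most 0.264 CPM. The fitted log2 fold change was 5.55 with a standard error of 0.737, a value that depends on the prior count, since MA-10 had only 2 Lifr counts. Lifr passed the filter on low counts only through STARKO1. Leaving out 1 library at a time gave 4.92 to 8.56.

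The shared chain was present in both lines. Il6st (chr13:112464070-112510086, plus strand), which encodes gp130, had 98.3, 48.4 and 68.3 CPM in MA-10 and 53.5, 58.8 and 53.4 CPM in STARKO1. The STARKO1 libraries lay within the range of MA-10, whose replicate 1 was the highest. Means were 71.7 ± 25.1 (SD, n = 3) and 55.2 ± 3.12 CPM (SD, n = 3), with a log2 fold change of -0.38 and a standard error of 0.263. Without MA-10 replicate 1 it was 0.00.

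The 2 kinases differed from each other in their pattern. Jak2 (chr19:29251828-29313080, plus strand) had 34.2, 31.7 and 31.5 CPM in MA-10 and 18.7, 21.5 and 16.4 CPM in STARKO1. All 3 STARKO1 libraries were lower, and MA-10 replicate 1 sat with the other MA-10 libraries. Means of 32.5 ± 1.53 and 18.9 ± 2.53 CPM (SD, n = 3 each) gave a log2 fold change of -0.78 with a standard error of 0.163, 1.72-fold lower in STARKO1. Leaving out 1 library at a time gave -0.88 to -0.66, and the size shrank to -0.36 with library size as the only scaling. Jak1 (chr4:101152367-101265282, minus strand) had 263, 166 and 233 CPM in MA-10 and 203, 208 and 203 CPM in STARKO1, and the groups overlapped. Its log2 fold change was -0.11 with a standard error of 0.212, and the sign turned without MA-10 replicate 1 (0.12), with upper quartile scaling (0.02) and with library size alone (0.27). The median over all genes tested was 0.06, 0.10 and 0.38 in those fits, so Jak1 was above the median only without MA-10 replicate 1.

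The transcription factor and its brake both had higher means in STARKO1 but overlapped. Stat3 (chr11:100885098-100939540, minus strand) had 73.5, 42.8 and 53.1 CPM in MA-10 and 78.1, 65.5 and 74.0 CPM in STARKO1. MA-10 replicate 1 fell inside the STARKO1 range and the other 2 MA-10 libraries below it. The means were 56.5 ± 15.6 and 72.5 ± 6.39 CPM (SD, n = 3 each). The fitted log2 difference was 0.36 with a standard error of 0.226, and it was 0.68 without MA-10 replicate 1. Stat3 overlaps the last 72 bases of Stat5a on the other strand, and whether counting used strand is not given in the sources used here. Socs3 (chr11:117966079-117970047, minus strand) had 13.5, 8.5 and 7.40 CPM in MA-10 and 11.7, 11.4 and 12.8 CPM in STARKO1. MA-10 replicate 1 was again the highest of its line, here above every STARKO1 library. Its means were 9.80 ± 3.26 and 12 ± 0.721 CPM (SD, n = 3 each), with a log2 fold change of 0.28, a standard error of 0.253 and 0.68 without MA-10 replicate 1. The signs of Jak2, Stat3 and Socs3 were the same in all 13 alternatives tried.

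Levels of different genes can be set side by side only per length, so CPM was divided by the kilobases of all annotated exons. In STARKO1 the order was Jak1 at 28.3 ± 0.344 CPM per kb, Stat3 at 7.61 ± 0.671, Il6st at 4.98 ± 0.281, Socs3 at 4.15 ± 0.249, Jak2 at 3.75 ± 0.503, Lif at 0.331 ± 0.200 and Lifr at 0.251 ± 0.0324 (SD, n = 3). Socs3 overlapped with Jak2, and Lif with Lifr, while the other neighbours in that order did not overlap. The gp130 transcript was thus 19.9 times as abundant per kb as that of its partner Lifr in the line where Lifr was detected. In MA-10 Jak1 was at 30.5 ± 6.87 CPM per kb, Il6st at 6.46 ± 2.26, Jak2 at 6.46 ± 0.305, Stat3 at 5.93 ± 1.64, Socs3 at 3.39 ± 1.13, Lif at 0.430 ± 0.319 and Lifr at 0.00537 ± 0.00929. There Il6st, Jak2 and Stat3 overlapped one another, as did Stat3 and Socs3, and Jak1, Lif and Lifr stood clear of their neighbours. Per kb Jak1 was 4.73 times Jak2 in MA-10 and 7.55 times in STARKO1.

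**Figure D2:**
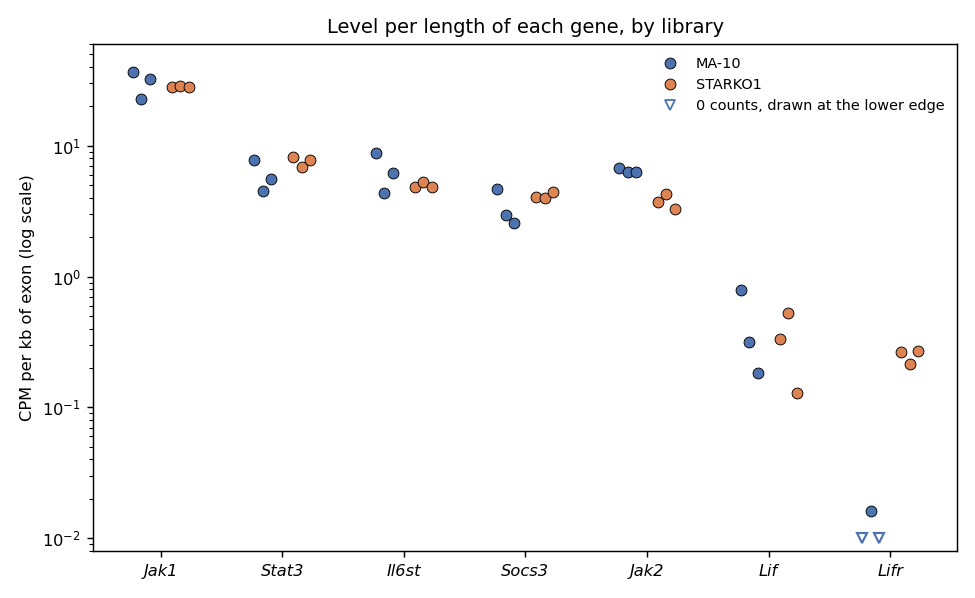
CPM per kb of exon (y axis, log scale) of the 7 genes in each library of the 2 lines. Open triangles at the lower edge are the 2 MA-10 libraries with no Lifr count. Jak1 is highest in both lines and Lifr lowest.

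The rest of the pathway was followed in 7 lists of genes that are not members, 106 genes of which 75 were in the table and 70 were tested. In STARKO1 3 of the 70 rose and 6 fell, 12.9% against 9.04% of all genes, with a median log2 fold change of 0.00 against -0.05. Libraries did not overlap for 35 of the 70, beside 42.5% of all genes. Of the 9 genes Ghr, Lcn2 and Klf4 were under the filter on low counts in every library of 1 line. They passed it only through the line where they were higher and so had to differ in level, and they are described below with no p. The filter did not force a call, since of 4 tested pathway genes of this kind these 3 passed the test. Of the 66 genes above the filter in at least 1 library of each line, 6 passed, or 9.09%. Without MA-10 replicate 1, 43 of 70 passed, or 61.4% against 65.7% of all genes, 24 higher and 19 lower. DESeq2 called 23 of the 75 in the table, beside 3385 of 14774 genes. The share of all genes with an unadjusted p under 0.05 was not taken, so counts of such genes below are not read as results.

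Among the ligands of the family 4 of 11 were in the table and 3 were tested. Of these 1 passed, beside 9.04% of all genes tested. Clcf1 (chr19:4214238-4223490, plus strand), a ligand of the ciliary neurotrophic factor receptor, fell from 1.84 ± 0.407 to 0.767 ± 0.0706 CPM (log2 fold change -1.27, SE 0.302, adjusted p = 0.0483). Its libraries had 2.29, 1.73 and 1.5 CPM in MA-10 and 0.688, 0.825 and 0.787 CPM in STARKO1. Ctf1, which encodes cardiotrophin 1 and was chosen after its values were seen, had a log2 fold change of 0.00 (adjusted p = 0.999). Osm, which encodes oncostatin M and starts 21.1 kb from Lif, did not pass the filter, with 14, 3 and 5 counts in MA-10 and 1, 1 and 2 in STARKO1. Il6 and Il11 had no row.

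None of the 4 alpha and partner receptors tested passed in edgeR's quasi-likelihood test, and 2 of them had an unadjusted p under 0.05. DESeq2 called 1, beside 3385 of 14774 genes. Without MA-10 replicate 1 edgeR called 2, both higher, beside 65.7% of all genes. Cntfr, the receptor for ciliary neurotrophic factor and the one with the highest CPM of the 4 averaged over all 6 libraries, had 17.4, 6.07 and 8.63 CPM in MA-10 and 19.6, 21 and 19.0 CPM in STARKO1. All STARKO1 libraries were above those of MA-10, with MA-10 replicate 1 close to them. Its log2 fold change was 0.89 with an adjusted p of 0.131, and 1.52 with an adjusted p of 0.00017 without that library. Il6ra, the receptor for interleukin 6, chosen after its values were seen, had 5.84 ± 2.06 and 4.33 ± 0.50 CPM (adjusted p = 0.289).

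Of 10 tested receptors of other cytokines that use JAKs 2 passed, Ghr as higher and Ifngr1 as lower, with a median log2 fold change of 0.04. That is 20%, against 9.04% of all genes, and Ghr had to differ because of the filter. DESeq2 called 3, beside 3385 of 14774 genes. Without MA-10 replicate 1 edgeR called 6, 4 higher and 2 lower, or 60% against 65.7% of all genes. Ghr (chr15:3317760-3583492, minus strand), the growth hormone receptor, which works through JAK2, had 0, 0 and 0 counts in MA-10 and 18, 10 and 12 counts in STARKO1. Its mean in STARKO1 was 0.679 ± 0.0925 CPM, at least 2.57-fold higher than the 3 counts per library that a count of 0 allows. Ghr lies 3.77 Mb from Lifr on chromosome 15, and like Lifr it passed the filter only through STARKO1. Ifngr1, the ligand-binding chain of the interferon gamma receptor, which uses JAK1 and JAK2, fell from 14.1 ± 1.55 to 8.61 ± 0.314 CPM (log2 fold change -0.71, SE 0.165, adjusted p = 0.0457). Prlr, the prolactin receptor, chosen after its values were seen, had 94.2 ± 9.83 and 111 ± 5.55 CPM (adjusted p = 0.292). Without MA-10 replicate 1 its log2 fold change went from 0.23 to 0.41, with an adjusted p of 0.0101.

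None of the 7 other JAKs and STATs tested passed in edgeR, although 4 had an unadjusted p under 0.05. DESeq2 called 2, beside 3385 of 14774 genes. Without MA-10 replicate 1 all 7 passed, 6 higher and 1 lower, as did 65.7% of all genes. With all libraries the median log2 fold change was 0.71, against -0.05 over all genes. Stat5b, with the highest mean CPM, had 152, 202 and 170 CPM in MA-10 and 145, 136 and 141 CPM in STARKO1 (log2 fold change -0.31, adjusted p = 0.224, and 0.0397 without MA-10 replicate 1). Jak3 and Stat5a were chosen after their values were seen. Jak3, the JAK of blood cells, had 4.98, 1.04 and 1.06 CPM in MA-10 and 8.73, 8.43 and 8.26 CPM in STARKO1 (log2 fold change 1.78, adjusted p = 0.0826). On the same strand its annotation holds the whole of Insl3, a Leydig cell hormone gene with 48.2 to 79.6 CPM, and how reads shared by the 2 were counted is not given. Stat5a, the factor encoded beside Stat3 and Stat5b, had 74.1, 31.8 and 34.8 CPM and 102, 93.1 and 106 CPM (log2 fold change 1.09, adjusted p = 0.0756). For both, MA-10 replicate 1 lay between the other MA-10 libraries and STARKO1, and without it the log2 fold changes were 3.10 and 1.68.

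Of 14 other SOCS genes and brakes of the pathway 1 fell, or 7.14% passing against 9.04% of all genes. DESeq2 called 3, beside 3385 of 14774 genes. Without MA-10 replicate 1 edgeR called 9, 3 higher and 6 lower, or 64.3% against 65.7% of all genes. Socs4, a SOCS protein known for acting on receptor tyrosine kinases, fell from 30.5 ± 2.56 to 19.3 ± 1.21 CPM (log2 fold change -0.66, SE 0.151, adjusted p = 0.0448). None of the 11 adaptors and linked kinases of gp130 passed in edgeR, and 5 had an unadjusted p under 0.05. DESeq2 called 3, beside 3385 of 14774 genes. Without MA-10 replicate 1 edgeR called 5 of them, or 45.5% against 65.7% of all genes. Ptpn11, the SHP2 phosphatase that docks at the same gp130 site as SOCS3 and the adaptor with the highest CPM averaged over all 6 libraries, had 151, 118 and 163 CPM in MA-10 and 162, 162 and 160 CPM in STARKO1 (log2 fold change 0.16, adjusted p = 0.512).

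Of 21 tested genes known as STAT3 targets 2 passed as higher and 3 as lower, with a median log2 fold change of -0.05. That is 23.8%, against 9.04% of all genes. But 2 of the 5, Lcn2 and Klf4, passed the filter only through the line where they were higher. Those 2 had to differ, so nothing is read from the share. DESeq2 called 9, beside 3385 of 14774 genes. Without MA-10 replicate 1 edgeR called 13, 6 higher and 7 lower, or 61.9% against 65.7% of all genes. Lbp (chr2:158306493-158332852, plus strand), an acute-phase protein that binds bacterial lipopolysaccharide, rose from 0.802, 1.04 and 1.41 CPM in MA-10 to 8.90, 10.6 and 10.6 CPM in STARKO1 (log2 fold change 3.22, SE 0.266, adjusted p = 0.00228). Lcn2 (chr2:32384633-32388252, minus strand), an iron-sequestering acute-phase protein, had 2, 1 and 1 counts in MA-10 and 63, 32 and 30 in STARKO1. The pooled ratio was 21.7 with an exact 95% counting interval of 8.28 to 81.0. In both genes MA-10 replicate 1 was with the other MA-10 libraries. Lrg1 and Saa3, other acute-phase genes of the list chosen after their values were seen, did not pass the filter and were lower in STARKO1. Lrg1 had 7, 5 and 3 counts in MA-10 and 2, 0 and 1 in STARKO1, and Saa3 had 3, 2 and 9 against 3, 1 and 0.

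The other 3 STAT3 targets that passed were lower in STARKO1. Klf4 (chr4:55527143-55532466, minus strand), a factor that acts below LIF and STAT3 in mouse embryonic stem cells, had 30, 20 and 26 counts in MA-10 and 2, 1 and 5 in STARKO1. The pooled ratio was 13.7, MA-10 over STARKO1, with an exact 95% counting interval of 6.59 to 32.8. Hif1a, the oxygen-sensing transcription factor, fell from 688 ± 192 to 320 ± 15.6 CPM (log2 fold change -1.10, SE 0.248, adjusted p = 0.0430). Cebpd, an acute-phase transcription factor, fell from 5.04 ± 0.459 to 2.75 ± 0.241 CPM (log2 fold change -0.87, SE 0.208, adjusted p = 0.0484).

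Of the 6 genes with a test, Lbp passed in each of the 6 fits that left out 1 library, with adjusted p up to 0.0298. Clcf1, Ifngr1, Socs4, Cebpd and Hif1a passed only without MA-10 replicate 1, at adjusted p of 0.0257, 0.00147, 0.00339, 0.0141 and 0.00125. Their log2 fold changes in that fit were -0.99, -0.72, -0.61, -0.72 and -1.13. When any of the other 5 libraries was left out, these 5 genes had adjusted p values of at least 0.0836, 0.0823, 0.0652, 0.0823 and 0.0535, up to 0.221, 0.217, 0.212, 0.219 and 0.205. In the 7 other settings that kept all libraries, Lbp passed in 7, but Hif1a in 3, Clcf1, Ifngr1 and Socs4 in 2 and Cebpd in 1. Over all settings adjusted p reached 0.224 for Clcf1, 0.461 for Ifngr1, 0.558 for Socs4 and 0.361 for Cebpd.

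**Figure D3:**
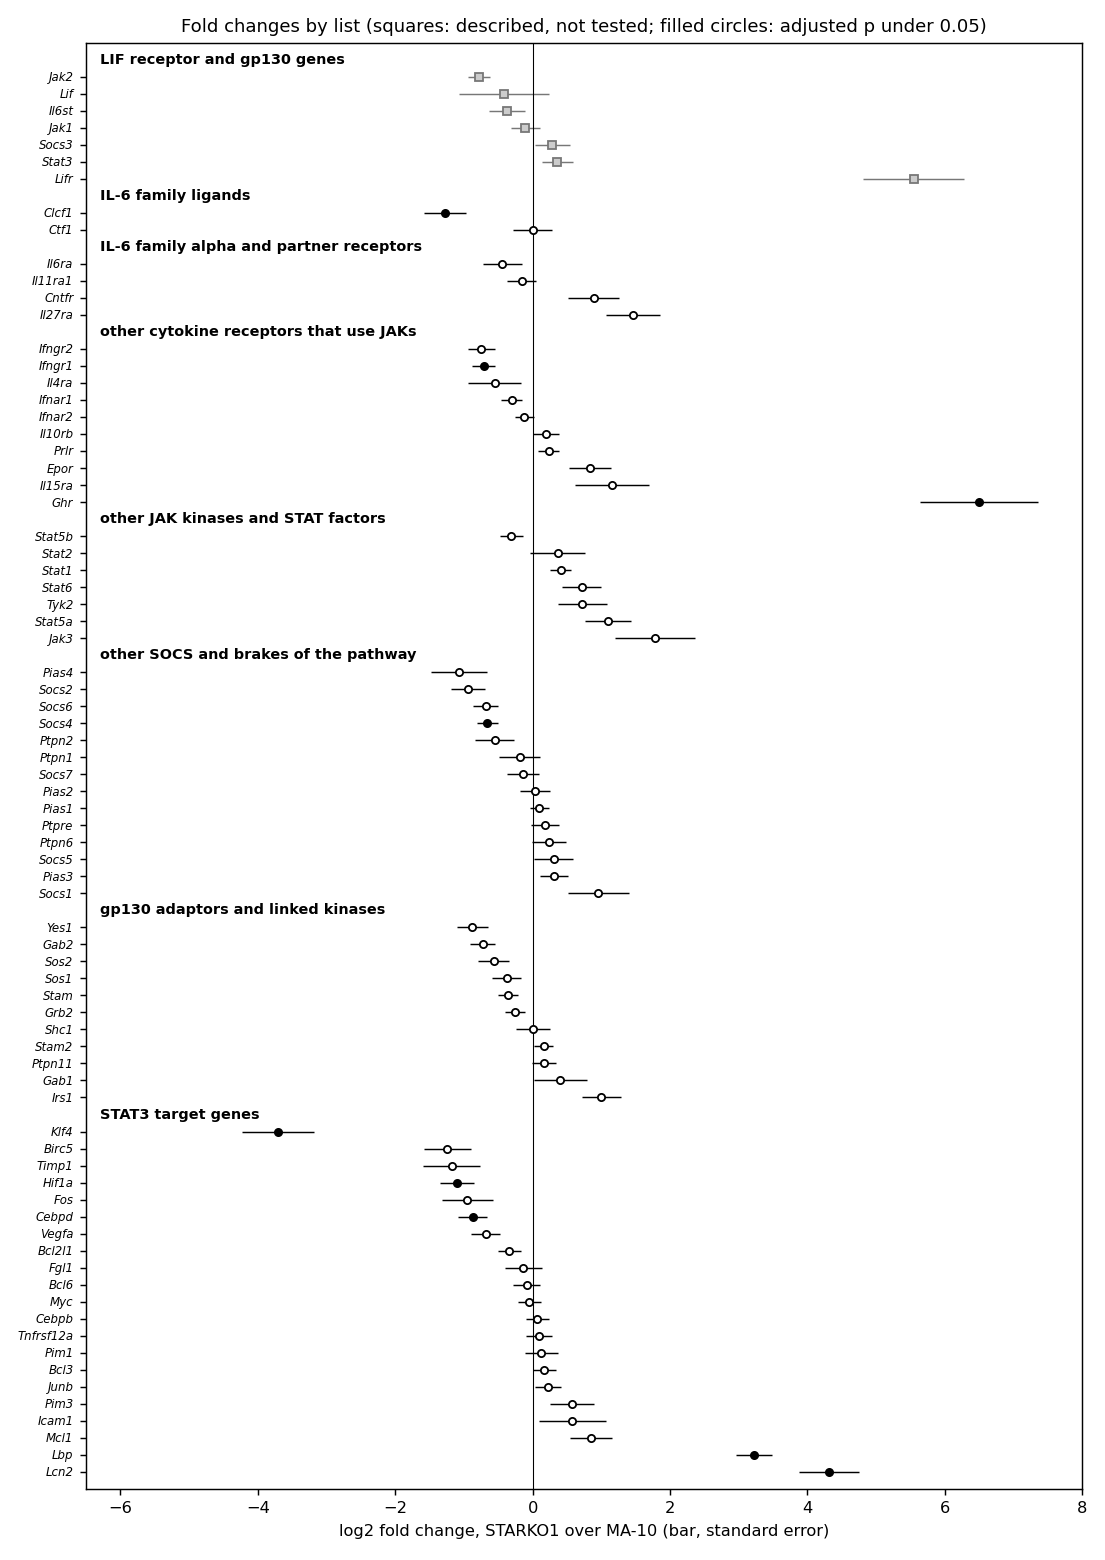
Log2 fold change of STARKO1 against MA-10 (x axis) with its standard error for the 7 genes (grey squares, described without a test) and the tested genes of the 7 pathway lists except 1 (circles, filled where the adjusted p was under 0.05). Lifr and Ghr lie farthest to the right, at fitted values that depend on the prior count, and Klf4 farthest to the left.

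**Figure D4:**
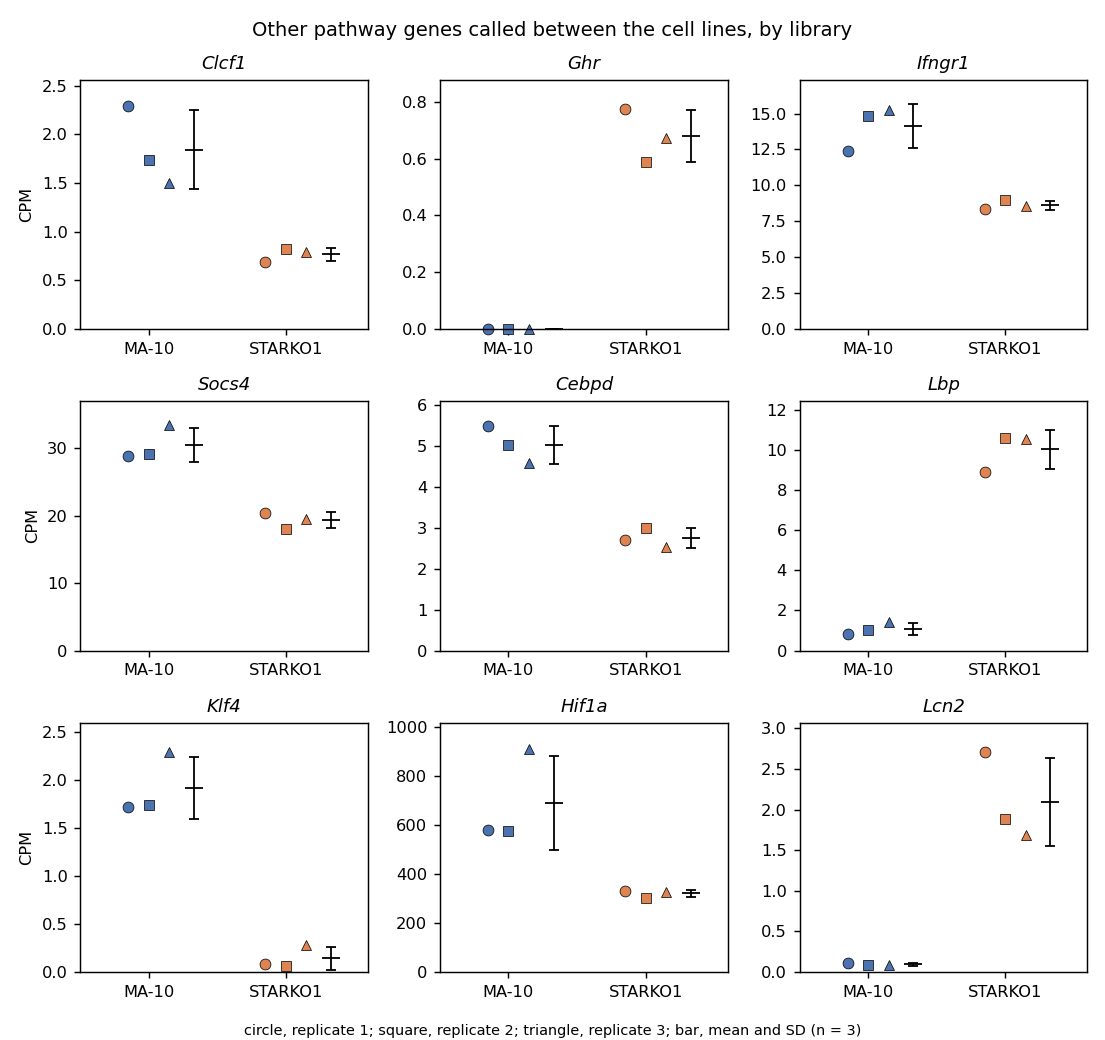
CPM (y axis) of the 9 pathway genes that passed the test, by library, with the mean and its SD (n = 3). Ghr, Lbp and Lcn2 are higher in every STARKO1 library and the other 6 lower.

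The neighbourhood of Lifr was examined because the annotated start of Osmr, its closest relative among the receptors, lies 216 kb from that of Lifr. Osmr is on the minus strand, so the 2 genes run away from each other. Of the 6 genes in the table that start within 1 Mb of either gene 5 were tested, and edgeR called 0, beside 9.04% of all genes. There were 0 at an unadjusted p under 0.05, and DESeq2 called 0, beside 3385 of 14774 genes. Rictor, a subunit of the TOR complex 2, had a log2 fold change of -0.19 (adjusted p = 0.367), Wdr70 -0.60 (adjusted p = 0.253), Gm49207 0.25 (adjusted p = 0.698) and Rpl19-ps6 -0.07 (adjusted p = 0.892). Gm7666, a pseudogene, had 22.9, 2.26 and 2.91 CPM in MA-10 and 28.0, 28.8 and 24.5 CPM in STARKO1 (log2 fold change 1.51, adjusted p = 0.213). Here MA-10 replicate 1 was close to STARKO1, and without it edgeR called Gm7666 (3.48, adjusted p = 1.1e-05) and Wdr70 (-0.84, adjusted p = 0.00082). In that fit 65.7% of all genes were called. Fyb, an adaptor of blood cells, was not tested.

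The genes whose log2(CPM + 0.5) followed that of Lifr most closely over the 6 libraries were Etf1 (Pearson r = 0.998), a translation release factor, Klk1 (0.998), a kallikrein, Pygm (0.997), the muscle glycogen phosphorylase, 2410002F23Rik (0.996) and Casp1 (0.996), the inflammasome protease. All 5 had no overlap between the lines, and the 6 points share 2 lines, so r mostly restates the gap between the lines. Their log2 fold changes were 0.48, 4.73, 1.5, 2.12 and 2.13. Within the set, r with Lifr was -0.97 for Jak2, 0.58 for Stat3, -0.56 for Il6st, 0.51 for Socs3, -0.31 for Jak1 and -0.24 for Lif.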

How the data were processed

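RNA was sequenced from 3 MA-10 and 3 STARKO1 libraries (SMARTer Total RNA Stranded Pico V2). The values deposited by the authors are estimated counts per gene, not normalized, in 1 table of 14774 genes. Of these 54.2% had at least 1 value that was not exactly whole and 21.6% one more than 0.1 count from whole, and every gene had at least 10 counts in all. The submitters' processing notes name STAR 2.6.1d, Partek and mm10. Their roles, the counting program and its strand setting are not given in the sources used here. Reads shared by overlapping genes or near-identical copies could therefore be split in ways that cannot be seen here.

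The table gives gene ends 1 base past the annotated end, and the ends printed here are 1 base less. Counts were rounded to whole numbers and tested with edgeR 4.0.16 in R 4.3.3 (filterByExpr, TMM, quasi-likelihood test without a block, Benjamini-Hochberg over 11939 genes, threshold 0.05). CPM used TMM library sizes. The script was tested on simulated counts. Of the 14774 genes 14677 were matched to GENCODE M21 by symbol and chromosome for exon lengths. Counting intervals and limits cover counting error only, and 3 counts were at most 0.264 CPM in MA-10 and 0.177 CPM in STARKO1. Alternatives were other scalings, DESeq2 1.42.0, other filters, a replicate block and leaving out each library.

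The members and lists were chosen with earlier results of these data known. Named were the 8 members, every pathway gene that passed, in a list where none passed the tested gene with the highest mean CPM, Star, the markers, genes starting within 1 Mb of Lifr or Osmr, and the 5 genes most correlated with Lifr among tested genes that averaged 1 CPM or more. Genes named outside that rule are marked in the text. Of the pathway genes 1 is counted but not reported here.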

Additional observations from a re-analysis of the deposited data

How the results depend on the processing

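Genes that passed numbered 1079, and 330 with library size alone (63.6% higher, against 47.5%), 695 with at least 10 counts in every library, 3385 with DESeq2, and 89 to 7990 when 1 library was left out, the most without MA-10 replicate 1. Pathway genes that passed numbered 9, and 4 with upper quartile scaling, 4 with library size alone, 5 without a filter, 2 with at least 10 counts in every library, 23 with DESeq2, and 2 to 43 when 1 library was left out. With library size alone the log2 fold changes were 6.0 for Lifr, 0.27 for Jak1, -0.36 for Jak2, 0.72 for Stat3 and 0.65 for Socs3, for Lifr 5.78 with DESeq2, and for Jak2 -0.64 with upper quartile scaling. With 1 library left out they ran from 4.92 to 8.56 for Lifr, -0.59 to 0.0049 for Il6st, -0.89 to 0.48 for Lif, 0.19 to 0.68 for Stat3 and 0.12 to 0.68 for Socs3. Lifr could not be fitted with at least 10 counts in every library. Per kb of the longest transcript, Il6st in STARKO1 was at 6.36 CPM, Jak1 at 45.0 in MA-10 and 41.7 in STARKO1, Stat3 at 9.35 and 12, and Socs3 in STARKO1 at 4.70. The causes of these shifts were not tested, beyond the fewer genes or libraries that a filter or omission leaves.

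The deviations of same-numbered libraries from their group means correlated at -0.0346 to 0.0907, and those of differently numbered libraries at -0.099 to 0.0801. With 3 libraries per line these values cannot decide whether the numbers pair the libraries. With the replicate block, 234 genes and 3 pathway genes passed. The depth limits what can be said of Lif, Lifr, Ghr, Klf4 and Lcn2, which had few counts in at least 1 line.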
